A study of Mus musculus with 12 samples.

Results

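The zinc finger protein genes of human chromosome 19 were examined in RNA-Seq libraries of U2OS cells, a human osteosarcoma cell line. They were taken as every protein-coding gene on chromosome 19 whose full name in the deposited table reads zinc finger protein followed by a number, which gave 246 of 58735 genes. Of these, 238 were also listed under the zf-C2H2 transcription factor family in the table. The 246 genes made up 47.7% of the 516 genes named in this way on all chromosomes and 16.7% of the protein-coding genes of chromosome 19.

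C2H2 zinc finger proteins bind DNA through an array of short zinc-stabilised loops, each of which contacts a few bases. Many of those encoded on chromosome 19 also carry a KRAB domain, which recruits the corepressor TRIM28 (KAP1) and, through it, the histone H3 lysine 9 methyltransferase SETDB1 and HP1 proteins, so that the bound site is packed into silent chromatin. The genes lie in clusters that arose by repeated local duplication, and many of the proteins silence transposable elements.

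There were 12 libraries in 4 groups, each with 3 replicates. The groups were U2OS cells left blank, U2OS cells with the siRNA siSRSF1-2, U2OS cells with the siRNA siSRSF1-3, and U2OS cells in which LINC01134, a long non-coding RNA, was overexpressed (OE-LINC01134). SRSF1, the target of both siRNAs, is a splicing factor of the SR family. No cells with a control siRNA or an empty vector were among the samples, so each difference from blank cells holds the effect of the delivery together with that of the agent, and the labels give neither a dose nor a time. The paper's methods give an siRNA concentration and a harvest time, but name HOS cells for the transfections. The labels name mouse as the organism, but the genes carry human Ensembl identifiers and the cell line is human. All 4 groups are cultures of 1 cell line, and nothing in the labels says whether replicates were separate cultures. A figure caption of the paper speaks of experimental repeats. Its supplementary methods speak of biological replicates, but with another number per condition than the libraries here. The p-values therefore measure only the spread between these libraries, which may be technical.

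Between 26237763 and 32954539 reads fell on genes in each library, of which 0.212% to 0.317% (58331 to 90361 reads) fell on the 246 zinc finger genes. SRSF1 was at 35.9, 19.8 and 20.5 FPKM (fragments per kilobase of gene, scaled for library size by the authors) in blank cells, at 7.09 to 7.46 with siSRSF1-2 and at 3.33 to 7.90 with siSRSF1-3. LINC01134 was at 0.50 to 0.79 FPKM in blank cells and at 878 to 1279 with overexpression. Of 9 osteoblast and mesenchymal markers, VIM, SPARC, COL1A1, SPP1, ALPL and RUNX2 were expressed while SP7, COL1A2 and BGLAP were at 0.384 FPKM or below in every library. Of 8 markers of other cell types, EPCAM reached 2.43 FPKM and the others stayed at or below 0.448. Some libraries stood apart from their groups. The mean chi-square per gene between 2 libraries, which is 1 for counting noise alone, was 2.36 to 3.88 between blank replicates 2 and 3, between OE-LINC01134 replicates 1 and 3 and among the siSRSF1-2 replicates. Blank replicate 1 was closest to OE-LINC01134 replicate 2 (66.9) rather than to its own group (96.1 and 101.5), and siSRSF1-3 replicate 3 was closest to siSRSF1-2 replicate 1 (44.8) rather than to its own group (212.7 and 673.8). The siSRSF1-3 replicates 1 and 2 were far from each other too (181.6). From the libraries of the other groups these 2 lay 285.1 to 956.4 away, against 44.8 to 198.8 for replicate 3. The labels give no batch, so results that rest on these libraries are given with and without them.

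Most of the zinc finger genes were expressed at low levels in blank cells. Their median was 1.15 FPKM, against 2.52 FPKM for the 270 numbered zinc finger protein genes of other chromosomes and 1.71 FPKM for the 1226 other protein-coding genes of chromosome 19. A mean of at least 0.5 FPKM over the 12 libraries, the filter for testing, was reached by 179 of the 246 genes (72.8%), by 83.0% of the zinc finger genes elsewhere and by 60.5% of the other chromosome 19 genes. Only 15 of the 246 were above 5 FPKM and 6 were above 10 FPKM. No read was found in any library for 10 of them, and 22 had at most 3 reads in every library, the number that a count of 0 allows by counting error alone.

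The 6 genes with the highest levels lay in 5 blocks of neighbouring genes, with ZNF524 and ZNF581 in the same one. ZNF146, which encodes a protein made almost wholly of zinc fingers without a KRAB domain, led with 26.5 ± 0.586 FPKM (SD, n = 3) in blank cells. ZNF114 followed at 25.8 ± 9.73, ZNF428 at 20.8 ± 2.51, ZNF358 at 14.4 ± 2.18, ZNF581 at 12.8 ± 0.685 and ZNF524 at 10.5 ± 0.263 FPKM (SD, n = 3). ZNF146 and ZNF114 did not differ beyond their spread, because ZNF114 read 37.0 FPKM in blank replicate 1 against 20.04 and 20.3 FPKM in replicates 2 and 3. ZNF114 overlapped ZNF428 and ZNF358 overlapped ZNF581, whereas ZNF428 and ZNF358, and ZNF581 and ZNF524, had blank ranges that did not overlap.

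Levels differed between clusters. Genes whose starts lay less than 1 Mb apart were joined into blocks, which gave 16 blocks, 9 of them with at least 5 zinc finger genes. The block from 19668796 to 24129961, next to the centromere, held 37 genes with a median of 0.0209 FPKM in blank cells, and only 7 of them (18.9%) passed the filter. Of its genes, 16 had at most 3 reads in every library, and its highest gene, ZNF101, was at 0.813 ± 0.0487 FPKM (SD, n = 3). The 2 largest blocks at the end of the long arm were expressed far more often. From 51571298 to 53580269, 35 of 39 genes (89.7%) passed the filter, led by ZNF841 at 7.51, 11.5 and 10.7 FPKM in blank cells. From 55476332 to 58481230, here called the last block, 53 of 59 genes (89.8%) passed, with a median of 1.60 FPKM and ZNF524 as the leading gene. Between these extremes, the block from 11483427 to 12640098 had 13 of 25 genes over the filter with ZNF791 on top (3.31, 3.501 and 3.65 FPKM in blank cells), and the block from 34677639 to 34964049 had all 5, led by ZNF302 (5.78, 5.18 and 5.58 FPKM).

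**Figure D1:**
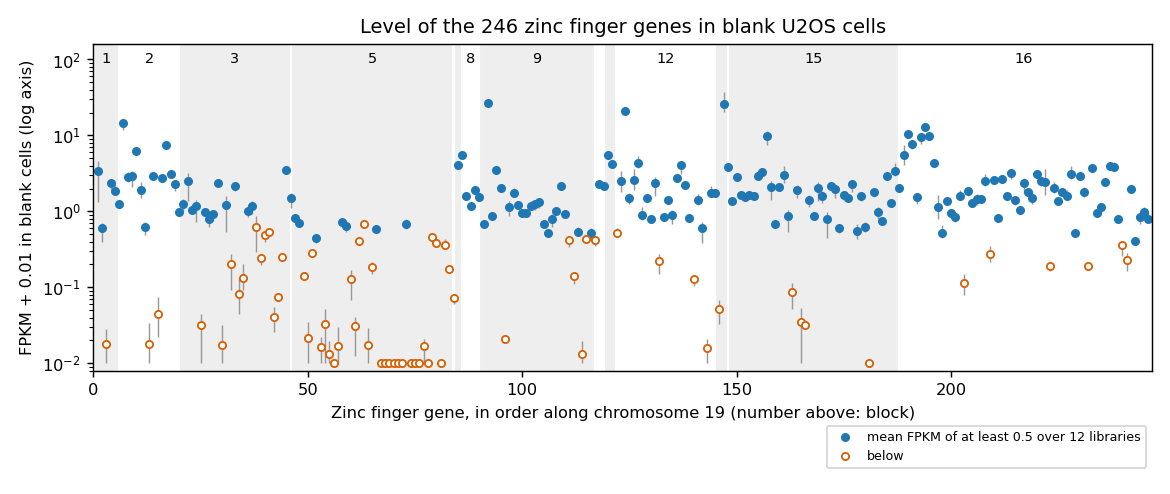
FPKM + 0.01 (log axis) in blank U2OS cells for the 246 zinc finger genes in their order along chromosome 19; points are means of 3 libraries, bars run from the lowest to the highest library, shading separates the blocks and the numbers name blocks with at least 5 genes. Block 5, next to the centromere, holds more of the open points under the filter of 0.5 FPKM than any other block, while 89.7% of block 15 and 89.8% of block 16 (the last block) lie above it.

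Groups were compared in pairs with limma on log2(FPKM + 0.1), a scale that understates changes of low genes, over the 17538 genes that passed the filter. A gene was called higher or lower with a Benjamini-Hochberg adjusted p under 0.05 over all genes tested and a log2 fold change beyond 1 in size. All 3 comparisons with blank cells share the same 3 blank libraries. Because the cells were measured in bulk, fewer cells with an RNA and less of it per cell cannot be told apart.

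With siSRSF1-2, ZNF554 and ZNF460 were called higher and ZNF792 lower than in blank cells, and 129 of the 179 tested zinc finger genes had a log2 fold change above 0, against 51.7% of all genes tested. ZNF554 (ENSG00000172006, 2819874 to 2835773 on the plus strand), a KRAB zinc finger gene studied in placental trophoblast, was at 1.33, 4.63 and 4.27 FPKM in blank cells and at 11.7, 12.8 and 11.2 FPKM with siSRSF1-2. All siSRSF1-2 libraries were above all blank libraries, and blank replicate 1 was the lowest of the 6. The log2 fold change was 1.95 (SE 0.456, adjusted p = 0.0260, limma). It was 1.40 without blank replicate 1 (adjusted p = 0.000104, limma). Without any 1 of the siSRSF1-2 libraries the adjusted p from limma rose to between 0.0846 and 0.0921, and the call was lost.

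ZNF460 (ENSG00000197714, 57280051 to 57293569, plus strand), in the last block, was at 1.67, 1.45 and 1.20 FPKM in blank cells and at 3.15, 3.13 and 3.40 FPKM with siSRSF1-2. The replicates of each group lay close together and the groups did not overlap, with a log2 fold change of 1.12 (SE 0.136, adjusted p = 0.00374, limma). ZNF792 (ENSG00000180884, 34956354 to 34964049, minus strand) went from 1.62, 1.41 and 1.58 FPKM in blank cells to 0.543, 0.680 and 0.553 FPKM. Every siSRSF1-2 library was lower than every blank library, and the log2 fold change was -1.25 (SE 0.155, adjusted p = 0.00399, limma). Both calls held without each single library of these groups.

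Of the 179 tested genes, 2 were thus called higher (1.12%, against 2.22% of all genes tested) and 1 lower (0.559%, against 2.73%). By the adjusted p alone, 27 were higher and 10 lower, against 14.0% and 12.8% of all genes. Many of these differences were small, from 0.28 to 1.95 for the higher genes and from -0.32 to -1.25 for the lower ones. ZNF805 (0.83, adjusted p = 0.00315, limma), a neighbour of ZNF460, and ZNF507 (0.70, adjusted p = 0.00261, limma) were among the higher genes with the smallest adjusted p and were chosen after their values were seen. ZNF302 (0.50, adjusted p = 0.00586, limma) and ZNF524 (0.48, adjusted p = 0.00516, limma) were also higher. ZNF146, the most abundant of the 246, was lower by a small amount, at 21.97, 20.5 and 20.4 FPKM against 26.6, 25.9 and 27.0 FPKM in blank cells (log2 fold change -0.34, adjusted p = 0.0105, limma). ZNF114 was at 12.4, 13.7 and 12.02 FPKM against 37.0, 20.04 and 20.3 FPKM (-0.95, adjusted p = 0.0348, limma), and ZNF581 was lower by less (-0.32, adjusted p = 0.0435, limma). The counts by adjusted p moved with the libraries used: 52 higher and 14 lower without blank replicate 1, 15 and 3 without blank replicate 2, 17 and 4 without blank replicate 3, 8 and 2 without siSRSF1-2 replicate 1, and 6 and 1 without replicate 2 or replicate 3. The shares of all genes moved too, from 5.16% to 27.4% higher and from 5.27% to 24.7% lower. ZNF114 was additionally called lower without blank replicate 2 or 3 (-1.10 in both).

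The median was above 0 in each siSRSF1-2 library. The median difference from the blank mean over the 179 genes was 0.19, 0.21 and 0.19 on the log2 scale in the 3 libraries, while the median over all tested genes was 0.03, 0.02 and 0.02. From the fits, the median log2 fold change was 0.20 for the 179 genes, 0.02 for all genes, 0.15 for the 224 tested zinc finger genes of other chromosomes and -0.11 for the 742 tested other genes of chromosome 19. In 77 genes (43.0%) all siSRSF1-2 libraries were above all blank libraries, and in 17 (9.50%) all were below, against 25.3% and 24.2% of all genes tested. For the tested zinc finger genes of other chromosomes these shares were 40.6% and 11.2%, and 70.1% of them had a log2 fold change above 0. Library medians were 0.21 to 0.24 for the 157 genes of at least 3 kb and -0.17 to -0.11 for the 22 shorter ones, a split chosen after the data were seen. Over all tested genes the same split gave 0.037 to 0.043 for the longer and -0.029 to -0.00014 for the shorter genes.

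**Figure D2:**
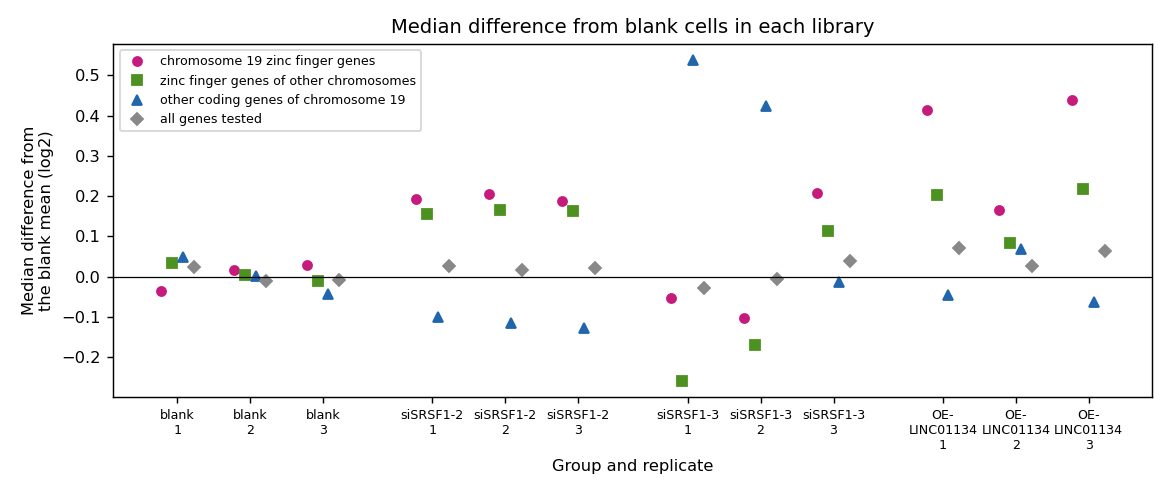
Median over genes of the log2(FPKM + 0.1) difference from the mean of the 3 blank libraries, 1 column of points per library, for the 179 tested chromosome 19 zinc finger genes, the 224 of other chromosomes, the 742 other coding genes of chromosome 19 and all 17538 genes tested. The chromosome 19 zinc finger genes sit at 0.19 to 0.21 in the siSRSF1-2 libraries, at 0.41, 0.17 and 0.44 with OE-LINC01134 and at -0.05, -0.10 and 0.21 with siSRSF1-3.

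With LINC01134 overexpression 151 of the 179 zinc finger genes had a log2 fold change above 0 (54.9% of all genes tested did), with the highest median among the blocks of at least 5 genes in the last block, although none was called with all libraries. ZNF548 (ENSG00000188785, 57389850 to 57402992, plus strand), which overlaps 3 other coding genes on its strand, was at 2.44, 2.62 and 2.59 FPKM in blank cells and at 6.84, 3.49 and 6.64 FPKM with overexpression. All 3 OE-LINC01134 libraries were higher, and replicate 2 was closest to blank cells (log2 fold change 1.06, SE 0.265, adjusted p = 0.0832, limma). ZNF460 read 4.38, 1.68 and 4.22 FPKM, with replicate 2 level with blank replicate 1 (1.09, adjusted p = 0.136, limma). ZNF580 (55635016 to 55643469), whose span overlaps that of ZNF581 on the same strand and whose reads may be shared with it, read 18.9, 15.6 and 19.5 FPKM against 10.5, 10.04 and 7.68 FPKM (0.94, adjusted p = 0.0504, limma) and was chosen after its values were seen.

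On the low side, ZNF792 was at 0.399, 0.640 and 0.231 FPKM against 1.62, 1.41 and 1.58 FPKM in blank cells (log2 fold change -1.72, SE 0.332, adjusted p = 0.0606, limma). Its neighbour ZNF30 (34926903 to 34945170, plus strand) was at 0.943, 1.59 and 0.663 FPKM against 1.84, 1.88 and 1.95 FPKM (-0.85, adjusted p = 0.144, limma) and was likewise chosen after its values were seen. ZNF114 lay below the blank range in all 3 libraries, at 7.21, 17.8 and 6.48 FPKM, but did not pass the test (-1.38, adjusted p = 0.113, limma).

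None of the 179 genes was called in either direction with limma (0.257% of all genes were called higher and 0.593% lower). Taking the unadjusted p instead, under 0.05 and beyond a log2 fold change of 1, gave 2 higher genes (ZNF460 and ZNF548) and 2 lower genes (ZNF792 and ZNF114), against 2.45% and 5% of all genes. With voom on the recovered reads 0 were called higher and 2 lower (1.12%), ZNF792 and ZNF85, against 0.576% and 1.41% of all genes. By adjusted p alone 2 were higher, ZNF700 (0.90, adjusted p = 0.0490, limma) and ZNF256 (0.82, adjusted p = 0.0485, limma), and 0 lower, against 0.450% and 0.730% of all genes. Without blank replicate 1 and OE-LINC01134 replicate 2, the libraries that stood apart, 10 were called higher (5.59%) and 3 lower (1.68%), against 5.10% and 8.84% of all genes. The 10 were ZNF580, ZNF548, ZNF700, ZNF551, ZNF460, ZNF699, ZNF772, ZNF582, ZNF221 and ZNF583, with log2 fold changes of 1.01 to 1.63, and the 3 were ZNF114 (-1.55), ZNF30 (-1.18) and ZNF792 (-1.97). Leaving out only OE-LINC01134 replicate 2 gave 7 higher and 3 lower (2.91% and 5.87% of all genes), and leaving out only blank replicate 1 gave 2 higher (ZNF580 and ZNF583) and 0 lower (1.81% and 3.68% of all genes). Without both libraries the share called higher, with the fold limit, was near that of all genes and the share called lower was below it. By adjusted p alone, without a fold limit, 95 of the 179 genes were higher and 10 lower without both libraries. These counts were 55 and 4 without only OE-LINC01134 replicate 2, and 20 and 1 without only blank replicate 1. The shares of all genes by adjusted p alone are not given for these omissions, so the counts cannot be set against those of all genes.

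**Figure D3:**
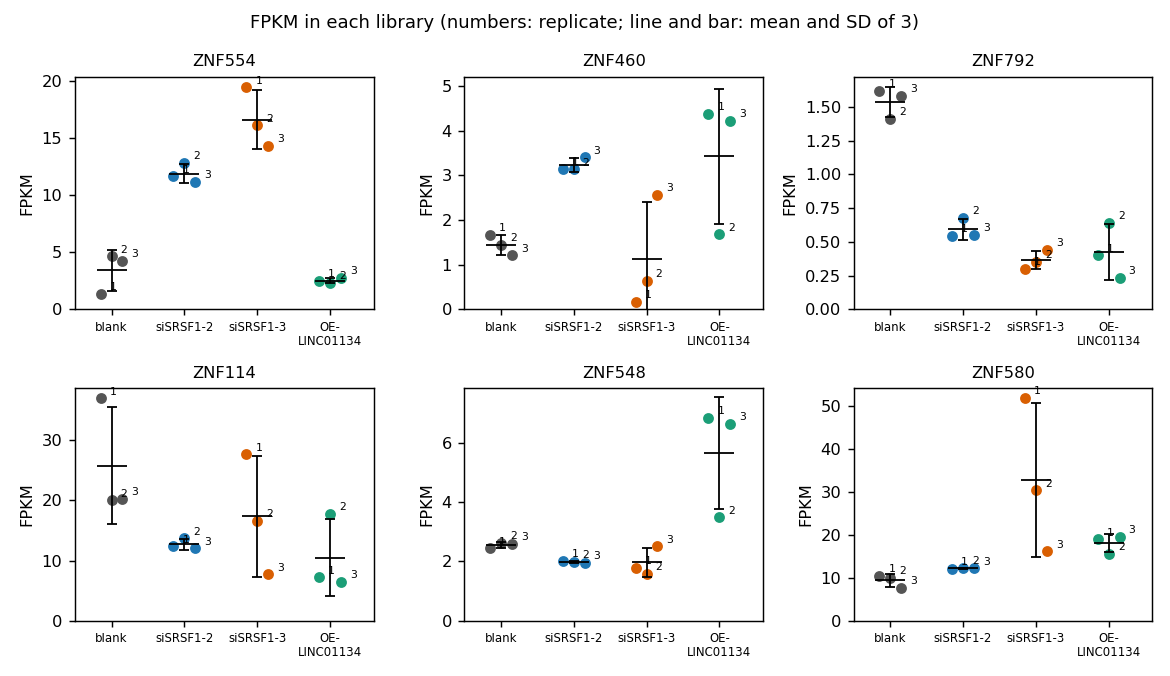
FPKM of 6 zinc finger genes in each of the 12 libraries, with numbers for replicates and lines and bars for the mean and SD of 3 libraries. ZNF554 is higher with both siRNAs (11.2 to 19.4 FPKM) than in blank cells (1.33 to 4.63), ZNF792 is lower in all 9 other libraries than in any blank library, and OE-LINC01134 replicate 2 lies nearer to blank cells than replicates 1 and 3 for ZNF460, ZNF548 and ZNF114.

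The median log2 fold change with LINC01134 overexpression was 0.32 over the 179 genes and 0.05 over all genes. It was 0.19 for the zinc finger genes of other chromosomes and -0.01 for the other genes of chromosome 19. In 70 zinc finger genes (39.1%) the overexpression libraries all lay above the blank libraries and in 10 (5.59%) all lay below, against 16.8% and 13.8% of all genes. For the tested zinc finger genes of other chromosomes these shares were 31.7% and 5.80%, and 71.4% of them had a log2 fold change above 0. Single libraries gave medians of 0.41, 0.17 and 0.44, so that OE-LINC01134 replicate 2 had the smallest shift. It lay above all 3 blank libraries (-0.03, 0.02 and 0.03), whose medians are held near 0 because these libraries make up the blank mean. The 157 genes of at least 3 kb had medians of 0.45, 0.17 and 0.45, and the 22 shorter ones 0.13, 0.005 and 0.15. Over all tested genes these medians were 0.073, 0.029 and 0.074 for the longer and 0.067, 0.019 and 0.053 for the shorter ones.

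The last block was singled out with its values known. Over its 53 tested genes the median change with LINC01134 overexpression was 0.61 on the log2 scale, 50 of them were above 0, and in 39 (73.6%) all overexpression libraries were above all blank libraries. In 1 gene all were below. Of all genes tested, 16.8% lay entirely above and 13.8% entirely below. The other 126 tested zinc finger genes had a median of 0.26, with 31 (24.6%) entirely above the blank libraries. By library the median of the last block was 0.61, 0.40 and 0.64, and without blank replicate 1 and OE-LINC01134 replicate 2 the fitted median was 0.64. Changes within the block ran from -0.27 (ZNF814) to 1.09 (ZNF460). The 20 other tested coding genes between the same bounds had a median of 0.39, with 7 entirely above the blank libraries and 0 below. In the other large blocks the medians were lower, 0.19 in the neighbouring block with ZNF841, 0.29 in the blocks led by ZNF146 and ZNF428, 0.27 in the block led by ZNF358, 0.44 in that led by ZNF791, 0.10 in the block next to the centromere, and -0.17 and -0.16 in the blocks led by ZNF302 and ZNF554. The last block had medians of 0.22 with siSRSF1-2 and 0.04 with siSRSF1-3. With siSRSF1-2, 24 of its genes (45.3%) lay entirely above the blank libraries, against 42.1% of the other zinc finger genes and 25.3% of all genes. With siSRSF1-3, 14 (26.4%) lay entirely above, against 11.1% and 19.2%. Entirely below lay 3 genes (5.66%) with siSRSF1-2 and 7 (13.2%) with siSRSF1-3, against 24.2% and 18.0% of all genes. Neighbouring genes resembled each other to a limited degree: over 164 pairs of adjacent tested genes in a block, Spearman's rho of their log2 fold changes was 0.25 with LINC01134 overexpression, 0.16 with siSRSF1-2 and 0.28 with siSRSF1-3, values that also carry shared libraries and reads shared between overlapping or similar genes.

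**Figure D4:**
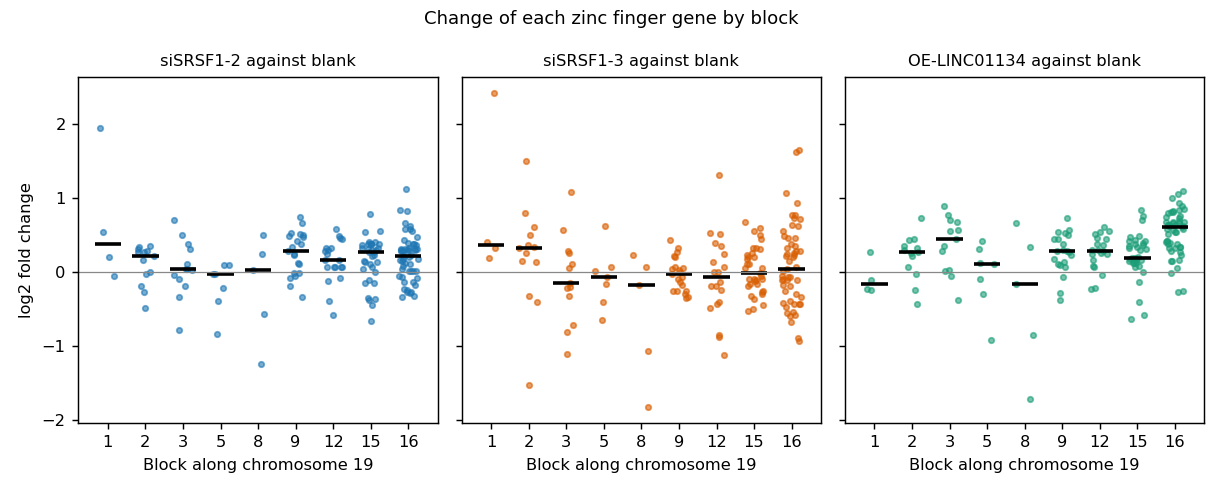
Log2 fold change against blank cells for each tested zinc finger gene (points) by block along chromosome 19, with the block median as a bar, for the siRNAs siSRSF1-2 and siSRSF1-3 and for OE-LINC01134. With OE-LINC01134 the points of block 16, the last block, are centred on 0.61, above the medians of the other blocks shown (those with at least 5 genes), while in the siRNA panels its medians are 0.22 and 0.04.

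With siSRSF1-3 only ZNF792 was called, and the zinc finger genes as a group had no common direction. ZNF792 was at 0.301, 0.353 and 0.439 FPKM against 1.62, 1.41 and 1.58 FPKM in blank cells, which did not overlap (log2 fold change -1.83, SE 0.292, adjusted p = 0.0456, limma). The call was lost without any single library other than siSRSF1-3 replicate 3, with adjusted p from limma between 0.0849 and 0.219, while the log2 fold change stayed between -1.73 and -1.94. ZNF554 had the largest difference, at 19.4, 16.1 and 14.3 FPKM, all above the 3 blank libraries (2.42, SE 0.458), but its adjusted p of 0.0541 from limma was just over the threshold.

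Several short genes read far above blank cells in siSRSF1-3 replicates 1 and 2 and much less so in replicate 3. ZNF358 (7515292 to 7521026, plus strand), which has a gene length of 2069 bases in the table and overlaps another coding gene on its strand, was at 91.5, 40.7 and 17.8 FPKM in the 3 siSRSF1-3 libraries against 11.9, 15.7 and 15.5 FPKM in blank cells. ZNF428 (43607219 to 43619874, minus strand, 1803 bases) was at 80.6, 62.2 and 27.6 FPKM against 23.7, 19.9 and 18.9 FPKM. ZNF524 (55600022 to 55603138, plus strand, 1360 bases) was at 50.3, 37.7 and 17.8 FPKM against 10.3, 10.3 and 10.8 FPKM. In each of them replicate 1 was the highest of all 12 libraries and replicate 3 the nearest to blank cells, and none passed the test with all libraries (log2 fold changes of 1.502, 1.32 and 1.62, adjusted p = 0.138, 0.104 and 0.0716, limma). ZNF580 read 51.9, 30.3 and 16.2 FPKM (1.65, adjusted p = 0.0806, limma), and ZNF581 read 34.3, 24.6 and 12.3 FPKM, the last of these within the blank range of 12.02 to 13.4 FPKM.

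Other genes read below blank cells in the same libraries. ZNF460 was at 0.160, 0.640 and 2.56 FPKM with siSRSF1-3 against 1.67, 1.45 and 1.20 FPKM in blank cells, so replicates 1 and 2 were below and replicate 3 above every blank library. ZNF700 had the same order, at 0.261, 1.05 and 3.49 FPKM against 2.40, 2.46 and 2.24 FPKM. ZNF699 was lower in all 3 libraries, at 0.380, 0.326 and 1.40 FPKM against 2.44, 1.49 and 1.73 FPKM (-1.53, adjusted p = 0.126, limma), and was chosen, like ZNF700, after its values were seen.

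Of the 179 genes, 0 were called higher and 1 lower with siSRSF1-3 against blank cells, where 0.331% and 0.929% of all genes were called. The unadjusted p gave 7 higher and 3 lower genes at the same limits of 0.05 and 1 (7.57% and 7.24% of all genes), and with voom on the recovered reads 1 was called higher (ZNF554) and 1 lower (ZNF792), against 1% and 2.34% of all genes. In 28 genes (15.6%) the siSRSF1-3 libraries were all above the blank libraries and in 20 (11.2%) all below, against 19.2% and 18.0% of all genes. Without siSRSF1-3 replicate 3, 11 were called higher (6.15%) and 8 lower (4.47%), against 12.5% and 11.4% of all genes. The 11 included ZNF554, ZNF358, ZNF428, ZNF524, ZNF580 and ZNF581, and the 8 included ZNF792, ZNF699, ZNF460, ZNF700 and ZNF417. With replicate 3 as the only siSRSF1-3 library, a lone sample taken to vary like the blank group, 0 were called in either direction with limma, although 1 was higher and 3 lower by the unadjusted p at the same limits. In that setting 0 of all genes tested were called either, and 1.81% and 3.94% were higher and lower by the unadjusted p.

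The median log2 fold change of the 179 genes with siSRSF1-3 was 0.00, against -0.01 for all genes, -0.10 for the zinc finger genes of other chromosomes and 0.32 for the other genes of chromosome 19. This median depended on the scaling: the deposited FPKM imply library sizes of 0.712 and 0.888 times the own read totals of siSRSF1-3 replicates 1 and 2, against 0.990 to 1.09 times elsewhere, and after scaling by own read totals the median became -0.24 for the 179 genes and -0.26 for all genes. By library, the median difference from the blank mean was -0.05, -0.10 and 0.21. The 22 tested genes under 3 kb had medians of 0.45, 0.42 and 0.02, and the 157 longer ones -0.10, -0.12 and 0.21. Over all tested genes, the 7368 under 3 kb had medians of 0.35, 0.26 and 0.09, and the 10170 longer ones -0.18, -0.12 and 0.01. This split had the same sign as that of the zinc finger genes in replicates 1 and 2 and the opposite sign in replicate 3. With own read totals the short zinc finger genes went to -0.09, 0.19 and 0.04, so that their direction in replicate 1 turned, while the longer ones went to -0.60, -0.35 and 0.23 and remained below the short ones in replicates 1 and 2. Gene length and library thus moved with the differences of these genes, and their part in them was not tested. EPCAM, an epithelial marker, read 2.06 to 2.43 FPKM in the siSRSF1-3 libraries against 0.918 to 1.63 in blank cells. KRT5, another epithelial marker of the list, went the other way at low levels, at 0.0183 to 0.0374 against 0.0499 to 0.337 FPKM. The part of these markers was not tested either.

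**Figure D5:**
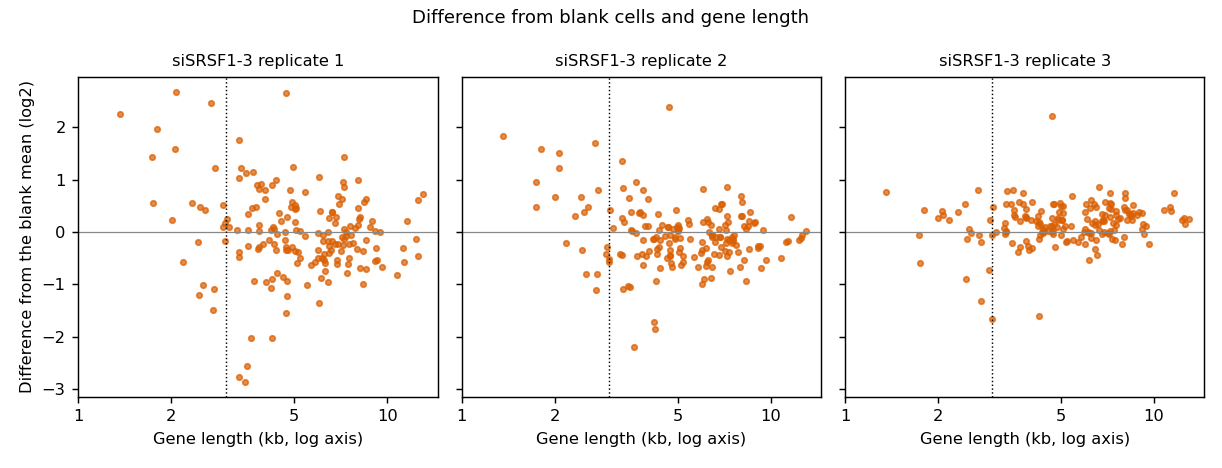
Log2(FPKM + 0.1) difference from the blank mean against gene length (kb, log axis) for the 179 tested zinc finger genes in the 3 siSRSF1-3 libraries; the dotted line marks 3 kb. In replicates 1 and 2 the genes under 3 kb have medians of 0.45 and 0.42 and the longer ones of -0.10 and -0.12, while in replicate 3 the medians are 0.02 and 0.21.

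The siRNAs have the same target, and siSRSF1-3 was therefore set against siSRSF1-2 directly. No zinc finger gene was called in this comparison with limma, where 0.0342% of all genes were called higher and 0.0513% lower with siSRSF1-3, nor with voom on the recovered reads (0.319% and 0.308% of all genes). Taking the unadjusted p gave 8 higher and 6 lower genes at the same limits (9.01% and 7.42% of all genes). ZNF460 had the largest difference, at 0.160, 0.640 and 2.56 FPKM with siSRSF1-3 and 3.15, 3.13 and 3.40 FPKM with siSRSF1-2 (-2.06, SE 0.800, adjusted p = 0.110, limma). On the other side stood ZNF358, whose siSRSF1-2 libraries read 11.5, 12.3 and 11.6 FPKM (1.77, SE 0.560, adjusted p = 0.0876, limma). The median difference was -0.13 for the 179 genes and -0.02 for all genes, and with own read totals it was -0.41 and -0.31. In 29 genes siSRSF1-3 lay wholly above siSRSF1-2 and in 49 wholly below (16.2% and 27.4%, against 27.0% and 27.6% of all genes). Without siSRSF1-3 replicate 3, 11 were called higher (6.15%) and 13 lower (7.26%), against 16.0% and 14.5% of all genes.

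Genes with a known role were read in all groups. ZNF91 and ZNF93, which repress SVA and LINE-1 elements, lie in the block next to the centromere and were under the filter. ZNF91 was at 0.438 to 0.462 FPKM in blank cells and at 0.280 to 0.534 FPKM in the other groups, which overlapped. ZNF93 was at 0.259, 0.271 and 0.290 FPKM in blank cells (40, 43 and 53 reads) and at 0.0247, 0.0525 and 0.0376 FPKM with LINC01134 overexpression (4, 8 and 6 reads), with no overlap. It was also lower in each siSRSF1-2 library, at 0.144, 0.158 and 0.172 FPKM, whereas the siSRSF1-3 libraries (0.247, 0.134 and 0.333 FPKM) spanned the blank range. When every gene with a read was tested, ZNF93 had a log2 fold change of -1.44 with LINC01134 overexpression (SE 0.151, adjusted p = 0.0528, limma) and of -0.54 with siSRSF1-2 (adjusted p = 0.134, limma).

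ZNF417 and ZNF587, close paralogs that repress HERV-K elements and may share reads, lie in the last block. ZNF417 was at 2.11, 1.51 and 1.71 FPKM in blank cells, at 3.09, 2.22 and 3.07 FPKM with LINC01134 overexpression and at 0.789, 0.468 and 1.91 FPKM with siSRSF1-3, and it passed no test with all libraries. ZNF587 was at 3.16, 2.66 and 2.99 FPKM in blank cells, and its 12 libraries ran from 2.24 to 4.06 FPKM. ZNF274 (58183029 to 58213562), which brings SETDB1 to the zinc finger gene clusters themselves, was at 3.51, 4.42 and 3.88 FPKM in blank cells, at 5.39, 5.32 and 4.74 FPKM with siSRSF1-2 (log2 fold change 0.38, adjusted p = 0.0485, limma) and at 7.40, 5.57 and 7.29 FPKM with LINC01134 overexpression (0.76, adjusted p = 0.0687, limma). Its siSRSF1-3 libraries, at 3.01, 4.09 and 5.01 FPKM, overlapped the blank ones. ZNF224, a KRAB repressor of the aldolase A gene, was at 1.31, 1.37 and 1.46 FPKM in blank cells and at 2.04, 1.89 and 1.98 FPKM with siSRSF1-2 (0.48, adjusted p = 0.0199, limma). ZNF473, which acts in the 3′ end processing of histone pre-mRNA, ran from 3.102 to 4.73 FPKM over the 12 libraries and passed no test.

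The corepressor genes through which KRAB proteins act were read as a list of 29, all of which passed the filter. None was called in any comparison with limma. By the unadjusted p and the same fold, 0 were higher and 0 lower with siSRSF1-2, against 3.06% and 3.43% of all genes. With LINC01134 overexpression the counts were 0 and 0, against 2.45% and 5%. They were 0 and 2 (6.90%) with siSRSF1-3, against 7.57% and 7.24%, and 0 and 1 (3.45%) between the siRNAs, against 9.01% and 7.42%. With voom on the recovered reads only DNMT3A was called. It was higher with siSRSF1-2, as were 454 of the 17538 genes tested. It was also lower with siSRSF1-3 than with siSRSF1-2, as were 0.308% of all genes. By adjusted p alone 4 were higher (13.8%) and 2 lower (6.90%) with siSRSF1-2, against 14.0% and 12.8% of all genes. In the other comparisons 0 were, against at most 0.935% of all genes in either direction. SETDB1 was at 4.11, 3.81 and 3.75 FPKM in blank cells and at 5.52, 5.58 and 5.76 FPKM with siSRSF1-2 (0.52, adjusted p = 0.00567, limma), and the DNA methyltransferase gene DNMT3A was higher by 0.99 (adjusted p = 0.0163, limma). ATRX (0.40) and MORC2 (0.34), which encode ATPases that act on chromatin, were also higher, and CBX3 (-0.43), an HP1 gene, was lower. TRIM28 was at 65.8, 28.1 and 28.5 FPKM in blank cells and at 34.5, 57.4 and 35.96 FPKM with LINC01134 overexpression, so blank replicate 1 and OE-LINC01134 replicate 2, the libraries that stood apart, were its highest. With siSRSF1-2 it was at 24.3, 25.7 and 23.1 FPKM and with siSRSF1-3 at 51.8, 38.0 and 24.4 FPKM, and it passed no test. The list medians were -0.02 with siSRSF1-2, -0.23 with siSRSF1-3 and 0.14 with LINC01134 overexpression, against 0.02, -0.01 and 0.05 for all genes.

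Of the 246 zinc finger genes, 179 overlap another gene of the table and 62 overlap a coding gene on the same strand. The strand setting of the read counting and the treatment of reads shared by similar genes are not given in the sources used here, so single values of overlapping or near-identical genes are uncertain.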

How the data were processed

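RNA-Seq of 12 U2OS libraries was analysed. The authors deposited FPKM per gene with gene lengths, coordinates and full names, per the file headers; the aligner, the counting program and the genome build of the coordinates are not given in the sources used here, and the submitters' notes list a mouse build. The supplementary methods give poly-T selection and a NEBNext kit, the labels a SMARTer kit. Symbols come from the full names (48 of 48 other genes looked up were matched). FPKM times gene length gave whole reads for 100% of values (tolerance 0.01 reads). No human sequence was at hand, so none is shown.

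Each comparison used 3 + 3 libraries with limma 3.58.1 in R 4.3.3 (lmFit, eBayes with trend) on log2(FPKM + 0.1) over genes with a mean of at least 0.5 FPKM, with Benjamini-Hochberg adjustment. The same steps were run on simulated reads with equal spread in all libraries and scaling by own read totals. That run cannot show how the fit behaves with libraries that stood apart or with the deposited scaling. Alternatives were a pseudocount of 1, no filter or 1 FPKM, own read totals, voom on recovered reads, a replicate block, 1 fit over 4 groups and omission of libraries.

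The zinc finger genes, the lists and the tests were chosen with earlier results of these data known. Genes were named by rule: up to 6 called genes per direction and comparison, the 6 highest in blank cells, 7 with a known role (ZNF91, ZNF93, ZNF417, ZNF587, ZNF274, ZNF473, ZNF224), the highest of each block, TRIM28, SETDB1 and called corepressors. The values of 1 corepressor gene are not reported here. All others were named after their values were seen. Precision is limited by counting: a count of 0 allows up to 3 reads, which covers counting error only.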

Additional observations from a re-analysis of the deposited data

How the results depend on the processing

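With siSRSF1-2, 1 gene instead of 2 was called higher with a pseudocount of 1, without a filter and in 1 fit over 4 groups. Called lower were 0 instead of 1 with a pseudocount of 1, with a filter of 1 FPKM and in 1 fit over 4 groups, against 2 with voom. Of all genes, 177 were called higher with a pseudocount of 1, 376 without a filter and 134 in 1 fit over 4 groups. Of all genes, 202 were called lower with a pseudocount of 1 and 371 with a filter of 1 FPKM. In 1 fit over 4 groups 180 were lower, and with voom 528. The median of 0.20 became 0.12 with a pseudocount of 1, 0.10 without a filter, 0.23 with a filter of 1 FPKM and 0.24 with own read totals. With siSRSF1-3, 107 of all genes were called higher with a pseudocount of 1 and 176 with voom. In 1 fit over 4 groups, 1245 of the 17538 genes tested were called higher and 1177 lower. Among the zinc finger genes, 1 was called higher with a pseudocount of 1 and with voom, and 7 higher and 3 lower in 1 fit over 4 groups. The lower call was lost (0) with a pseudocount of 1, a filter of 1 FPKM, own read totals, the replicate block and without siSRSF1-3 replicates 1 and 2, a setting added after the data were seen. The median became -0.24 with own read totals and 0.21 without replicates 1 and 2. With LINC01134 overexpression, 1 fit over 4 groups gave 1 higher and 1 lower, and voom gave 2 lower. The omission of blank replicate 1 and OE-LINC01134 replicate 2, also added after the data were seen, gave 10 higher and 3 lower. Of all genes, 1 fit over 4 groups called 174 higher and 515 lower, and voom called 247 lower. That omission called 895 of all genes higher and 1551 lower. Between the siRNAs, 1 fit over 4 groups gave 8 higher and 5 lower, against 1472 and 1259 of the 17538 genes tested, and own read totals a median of -0.41. In 1 fit over 4 groups the spread was pooled over all 4 groups by construction. The cause of the changes under these alternatives was not tested.

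Omission of each library in turn gave these ranges, with those of all genes called in brackets. With siSRSF1-2, 1 to 2 were higher (201 to 532), 1 to 2 lower (331 to 656) and medians 0.17 to 0.22. With siSRSF1-3, 0 to 11 were higher (0 to 2192), 0 to 8 lower (0 to 1992) and medians -0.11 to 0.05. With LINC01134 overexpression, 0 to 7 were higher (1 to 511), 0 to 3 lower (0 to 1029) and medians 0.29 to 0.41. Between the siRNAs, 0 to 11 were higher (0 to 2807), 0 to 13 lower (0 to 2551) and medians -0.23 to -0.06. Without siSRSF1-3 replicates 1 and 2, the log2 fold changes with siSRSF1-3 turned sign for ZNF460 (0.80), ZNF146 (0.20), ZNF581 (-0.0541) and ZNF417 (0.113); that of ZNF146, -0.02 with all libraries, was also 0.0369 without replicate 1, 0.0273 without replicate 2 and -0.135 without replicate 3. Of 743 values of named genes under these alternatives, 655 kept their direction and their side of the threshold, 17 lost the threshold, 65 gained it and 6 turned sign.

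The replicate numbers did not pair the libraries: deviations of same-numbered libraries correlated at -0.0815 to 0.0420. With the replicate number as a block, siSRSF1-2 kept 2 higher and 1 lower, against 300 and 381 of the 17538 genes tested. By adjusted p alone 8 were higher and 1 lower instead of 27 and 10. The shares of all genes by adjusted p alone are not given for the block.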
